A study of Danio rerio with 12 samples.

Results

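The genes described here are those whose level differed in the same direction whenever panx1b was lost, in wild-type TL larvae and again in larvae that already lacked panx1a. They number 207 of the 21111 genes that averaged 1 CPM or more over the 12 libraries, out of 31261 genes in all, where CPM is a gene's read count scaled to a common library total. Of these, 69 were higher and 138 were lower in the larvae without panx1b. They were chosen by measured values: on the log2(CPM+1) scale the mean had to differ by at least 0.5 in the same direction in panx1b knock-out (KO) minus TL and in double KO minus panx1a KO, and no library of the 6 without panx1b could overlap with the other 6. Core clock genes and the signal recognition particle RNA copies were left out by name. These shifts chose the genes, so they are given as a description and carry no test.

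The 12 libraries came from whole zebrafish larvae at 6 dpf, untreated and labelled as in light (the hour of sampling is not given in the sources used here), with 3 libraries for each of 4 lines, and the study asked what the loss of Panx1b changes in the larva. The double KO lacks both panx1a and panx1b, the panx1b KO lacks panx1b alone, the panx1a KO lacks panx1a alone, and TL is the wild-type strain (Tupfel long fin). Each library was made from a pool of about 30 larvae. Each knock-out was made with TALENs, is carried by every cell, and is 1 line (the panx1b line goes back to 1 founder, crossed back to TL), so the mutation and anything else that came with that line cannot be told apart. The double KO and the panx1b KO together are called the panx1b-null lines.

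Panx1 proteins form large-pore membrane channels that let ATP and other small molecules leave the cell. Released ATP and the adenosine made from it act on purinergic receptors in many tissues. The zebrafish has a pair of panx1 ohnologs, of which panx1b is known from the retina and brain. A whole-larva library mixes all tissues by their RNA content. Fewer cells of a type and less RNA per cell therefore cannot be told apart in any result below.

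Library totals ran from 20581029 to 29259122 counts. Both panx1 ohnologs carry the symbol PANX1 in the name table used here, so the targeted transcript could not be assigned from its name. PANX1 (ENSDARG00000014910) had 128, 140 and 163 counts in panx1b KO against 154, 123 and 130 in TL, and 79, 83 and 107 in double KO against 160, 226 and 211 in panx1a KO. The groups overlapped in the first pair only. PANX1 (ENSDARG00000025285) had 200, 221 and 224 counts in panx1b KO against 292, 249 and 399 in TL, and 93, 88 and 98 in double KO against 82, 123 and 106 in panx1a KO. This identifier was lower with panx1a loss over the 12 libraries (log2 fold change -1.40, adjusted p = 1.48e-06, edgeR), whereas neither identifier passed the test for panx1b loss (adjusted p = 0.171 for ENSDARG00000014910 and 0.124 for ENSDARG00000025285). PANX2 (shifts 0.08 and -0.18) and PANX3 (shifts -0.13 and -0.09) were not among the 207 genes. Neither PANX1 identifier was among them.

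A shift of 0.5 or more appeared in 2091 genes in panx1b KO against TL and in 1758 genes in double KO against panx1a KO. These 2 comparisons share no library. It appeared in both with the same sign in 361 genes and with opposite signs in 198 genes. With no overlap between the 6 panx1b-null and the 6 other libraries required as well, 72 genes remained upward and 150 downward, and 15 of these (3 upward, 12 downward) were clock genes that the rule leaves out. The genes kept were 0.327% (higher) and 0.654% (lower) of all genes at this level. Over all genes, the 6 panx1b-null libraries all lay above the 6 others in 1.49% and all below in 2.54%. The same rule turned round for panx1a, in panx1a KO minus TL and in double KO minus panx1b KO, kept 433 genes, 162 higher and 271 lower.

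**Figure D1:**
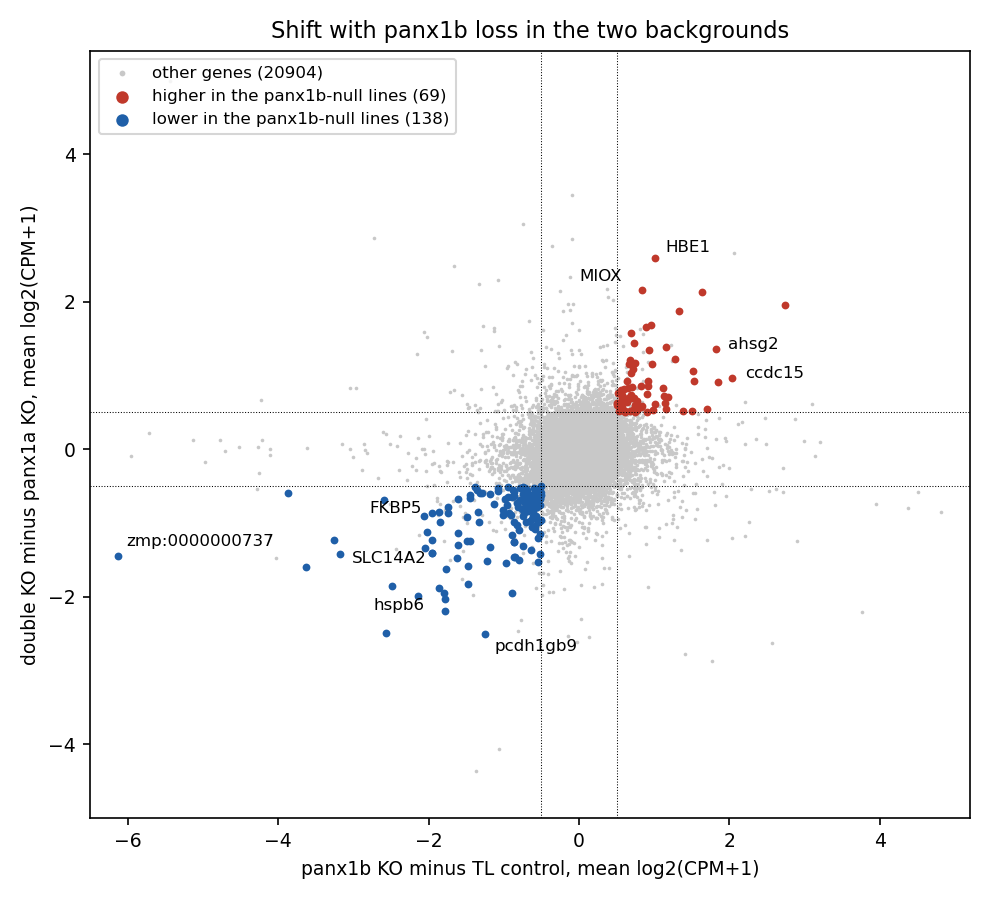
Difference in mean log2(CPM+1) for each of 21111 genes in panx1b KO minus TL (x axis) and in double KO minus panx1a KO (y axis), with the 69 higher and 138 lower genes coloured and dotted lines at 0.5 and -0.5. Most of the coloured genes sit close to the dotted corner; HBE1, MIOX, SLC14A2 and zmp:0000000737 lie far along 1 axis.

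The higher genes had a median shift of 0.77 in panx1b KO minus TL and 0.74 in double KO minus panx1a KO, and the lower genes of -0.84 and -0.85, where the median of all genes was 0.02 and -0.00055. Both shifts reached 1 in 8 higher and 27 lower genes. The shifts lay within 0.25 of each other in 34 of 69 higher and 67 of 138 lower genes. A shift over 1 larger in panx1b KO against TL was seen for 9 lower genes, and over 1 larger in double KO against panx1a KO for 2 lower genes. For the higher genes these numbers were 2 and 2. The mean level was mostly low, with a median of 6.07 CPM for the higher and 8.97 CPM for the lower genes, against 13 CPM for all genes.

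At the threshold, the smaller of the 2 shifts of the higher genes CAMLG (0.500074), mhc1laa (0.501428) and MEP1B (0.502755) was just inside, whereas znf1186 (0.49), si:ch211-103n10.5 (0.48) and or42a4 (0.48) were just outside. Of the lower genes, zgc:162184 (-0.501069), HSF2 (-0.502405) and PRELID3B (-0.505051) were just inside, and DIMT1 (-0.495917), ANKRD9 (-0.495465) and CLRN3 (-0.493591) just outside.

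**Figure D2:**
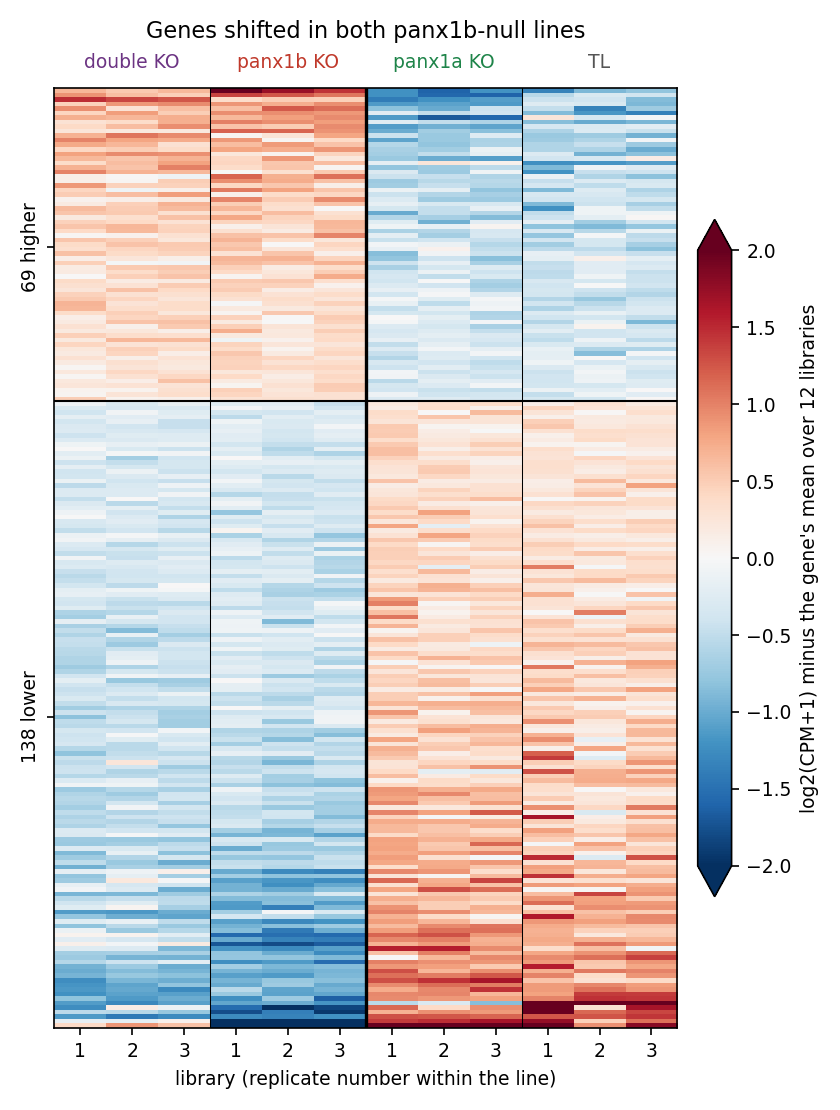
Log2(CPM+1) of each of the 207 genes minus its own mean over the 12 libraries (colour, limited to -2 and 2), with the libraries of double KO, panx1b KO, panx1a KO and TL as columns and the genes sorted by the mean of their 2 shifts. The 69 higher genes are mostly red and the 138 lower genes mostly blue in the 6 panx1b-null columns, with exceptions among the double KO columns. The darkest blue is in the panx1b KO columns at the foot, among genes that double KO kept in part.

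The gene groups that follow were put together by role after the values had been seen, so the number of genes in a group is a description and no group was tested. Among the lower genes were 9 transporters, channels and related enzymes for ions, ammonia and urea. In fish some of these proteins belong to the ionocytes of skin and gill, cells that take up salt and excrete acid and ammonia. RHCG (ENSDARG00000007080), an Rh glycoprotein that conducts ammonia, had 39.6, 33.9 and 34.9 CPM in panx1b KO against 192, 92.3 and 110 CPM in TL. In double KO it had 32.5, 38.2 and 31.6 CPM, against 117, 114 and 92.7 CPM in panx1a KO. All 6 panx1b-null libraries stayed under 40 CPM, and no other library was below 92; the shifts were -1.77 and -1.63. A further RHCG identifier (ENSDARG00000003203) had 58.2, 52.6 and 42.8 CPM in panx1b KO against 224, 119 and 144 CPM in TL, and 42.4, 36.8 and 35.0 CPM in double KO against 120, 96.4 and 75.2 CPM in panx1a KO. Again the TL replicate 1 library was the highest, and the groups were apart without it.

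SLC14A2, a urea transporter, had 1.05, 1.70 and 0.829 CPM in panx1b KO against 26.7, 14.5 and 16.7 CPM in TL, a 16.2-fold difference between the means. It had 3.86, 3.79 and 3.12 CPM in double KO against 10.28, 12.1 and 11.6 CPM in panx1a KO, a 3.16-fold difference. Its level in double KO lay between the panx1b KO and panx1a KO levels with no overlap. The Na+/K+-ATPase alpha subunit gene atp1a1a.5 averaged 5.75 ± 1.13 CPM in panx1b KO and 19.0 ± 10.5 CPM in TL, and 6.19 ± 0.576 CPM in double KO and 10.5 ± 1.89 CPM in panx1a KO (SD, n = 3 each). The Na+/H+ exchanger gene slc9a3.2 averaged 5.41 ± 0.880 CPM in panx1b KO and 11.6 ± 1.45 CPM in TL, and 5.66 ± 0.426 CPM in double KO and 9.74 ± 1.48 CPM in panx1a KO. The other 4 were the carbonic anhydrase ca4c, the potassium channel KCNK5, the ornithine carrier SLC25A15 and the monocarboxylate carrier slc5a8l, with shifts between -0.89 and -0.52.

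Most other ionocyte genes shifted little. A list of 32 ionocyte gene names drawn up after these values were seen matched 31 genes at this level. Its median shift was 0.04 in panx1b KO minus TL and -0.11 in double KO minus panx1a KO, close to the 0.02 and -0.00055 of all genes. Only the 4 genes already named, both RHCG identifiers, atp1a1a.5 and slc9a3.2, were among the 207. Of the other 27, 1 was lower and 0 higher with panx1b loss over the 12 libraries by edgeR. The transcription factors that specify ionocytes had shifts near 0: foxi3a 0.04 and 0.20, foxi3b 0.07 and -0.16. RHBG, another ammonia-conducting Rh protein, had -0.27 and -0.07, and the last RHCG identifier had 0.14 and 0.27. The calcium channel TRPV6 shifted in opposite directions, by 2.29 and -0.55, as did the carbonic anhydrase ca15a, by -0.78 and 0.71.

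Muscle genes made up 13 of the lower genes. They included genes for chaperones, kinases and a receptor subunit of the neuromuscular junction. The small heat shock protein gene hspb6 had 2.11, 2.00 and 2.53 CPM in panx1b KO against 12.2, 7.58 and 11.2 CPM in TL, and 2.45, 2.89 and 2.75 CPM in double KO against 13.1, 12.4 and 14.7 CPM in panx1a KO. It was 4.66-fold and 4.96-fold lower. CHRNE, the epsilon subunit of the acetylcholine receptor at the neuromuscular junction, averaged 6.52 ± 1.14 CPM in panx1b KO and 11.6 ± 0.914 CPM in TL, and 6.25 ± 0.794 CPM in double KO and 17.1 ± 2.77 CPM in panx1a KO. UNC45B, the chaperone that folds myosin, had 5.72, 4.55 and 5.07 CPM in panx1b KO against 6.23, 13.7 and 7.62 CPM in TL. The lowest TL library was close to the highest panx1b KO library, and the shifts were -0.67 and -0.81.

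Both MYLK4 identifiers, which encode a myosin light chain kinase, were lower, ENSDARG00000055412 by shifts of -0.73 and -0.87 and ENSDARG00000091260 by -0.55 and -1.21. The sarcoplasmic reticulum dehydrogenase gene DHRS7C had 0.137, 0.383 and 0.138 CPM in panx1b KO against 4.38, 3.35 and 3.45 CPM in TL, and 0.877, 1.09 and 0.733 CPM in double KO against 2.70, 2.47 and 2.21 CPM in panx1a KO. The most abundant of the group, igfn1.3, had 146, 142 and 117 CPM in panx1b KO against 344, 255 and 331 CPM in TL, and 158, 208 and 171 CPM in double KO against 241, 285 and 293 CPM in panx1a KO. The remaining muscle genes were cmya5, obsl1a, alpk3b, ANKRD1, nmrk2 and FBP2, with shifts between -1.29 and -0.51.

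Fast muscle markers are given beside this group. The summed level of 5 such identifiers ran from 6828 to 9822 CPM in panx1b KO against 9303 to 12501 CPM in TL, and from 9263 to 10250 CPM in double KO against 9453 to 11133 CPM in panx1a KO. The ranges overlapped in both pairs, and the median shifts of the 5 were -0.29 and -0.21. None of the 5 was among the 207 and none was at 0 in any line. Over 41 sarcomere and muscle chaperone genes listed after the values were seen, the median shifts were -0.26 and -0.23. Of the 40 outside the 207, 5 were lower and 1 higher with panx1b loss over the 12 libraries by edgeR. Among all genes 3.7% were lower and 2.25% higher. The part of muscle RNA content in the shifts of the 13 genes was not tested.

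FKBP5, a co-chaperone of the glucocorticoid receptor and one of its well-known target genes, had 34.9, 29.5 and 41.8 CPM in panx1b KO against 96.8, 150 and 147 CPM in TL. It had 66.1, 81.0 and 48.8 CPM in double KO against 147, 110 and 129 CPM in panx1a KO. The panx1b-null libraries reached at most 81.0 CPM, in double KO, and the others at least 96.8 CPM, in TL, so the gap across the 2 pairs was narrow. The lowest panx1a KO library was at 110 CPM. The shifts were -1.84 and -0.99. The nuclear receptor gene NR4A1, an immediate early gene, averaged 7.15 ± 1.05 CPM in panx1b KO and 19.7 ± 1.06 CPM in TL, and 9.15 ± 1.25 CPM in double KO and 13.9 ± 1.55 CPM in panx1a KO. RXRA, the partner of many nuclear receptors, shifted by -0.71 and -0.66, and the heat shock transcription factor HSF2 by -0.51 and -0.50.

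Genes for ribosome biogenesis and protein folding, with the coactivator gene pprc1 counted among them, were 6 of the lower genes. NOP58, a core protein of the box C/D particles that methylate ribosomal RNA, had 69.8, 52.9 and 68.3 CPM in panx1b KO against 96.8, 110 and 95.4 CPM in TL, and 52.8, 54.5 and 55.2 CPM in double KO against 105, 88.5 and 82.5 CPM in panx1a KO. The coactivator gene pprc1, related to PGC-1, averaged 13.2 ± 2.12 CPM in panx1b KO and 27.5 ± 2.95 CPM in TL, and 12.6 ± 0.880 CPM in double KO and 24.4 ± 3.95 CPM in panx1a KO. CCT4, a subunit of the chaperonin that folds actin and tubulin, was the most abundant of these, with 154 ± 16.1 CPM in panx1b KO and 252 ± 12.4 CPM in TL, and 168 ± 3.43 CPM in double KO and 273 ± 4.52 CPM in panx1a KO. RRS1, URB2 and ZCCHC4 had shifts between -0.995 and -0.55.

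A list of rRNA processing and ribosome biogenesis genes held 48 genes at this level, of which NOP58 was the only one among the 207. Of the other 47, 12 were lower and 0 higher with panx1b loss over the 12 libraries by edgeR, where 3.7% of all genes were lower and 2.25% higher. Its median shifts were -0.20 and -0.22. The heat shock and chaperone list held UNC45B and HSF2, and 1 of its other 27 genes was lower. The clock output list held FKBP5, and 4 of its other 34 genes were lower. The cholesterol and glucocorticoid list also held FKBP5, and of its other 17 genes 1 was higher and 2, both PER1 clock genes, were lower. KLF9, on both lists that held FKBP5, shifted by -1.14 in panx1b KO minus TL but 0.03 in double KO minus panx1a KO. It did not pass the test for panx1b loss. No gene of the purinergic and nucleotide handling list was among the 207 and 0 of its 25 genes passed the test for panx1b loss. That list did not include the purine nucleoside phosphorylase genes PNP and pnp4a, which were among the lower genes. The phototransduction list held none of the 207, with 4 of 36 genes higher and 1 lower, and the light-induced DNA repair list none, with 2 of 16 higher.

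**Figure D3:**
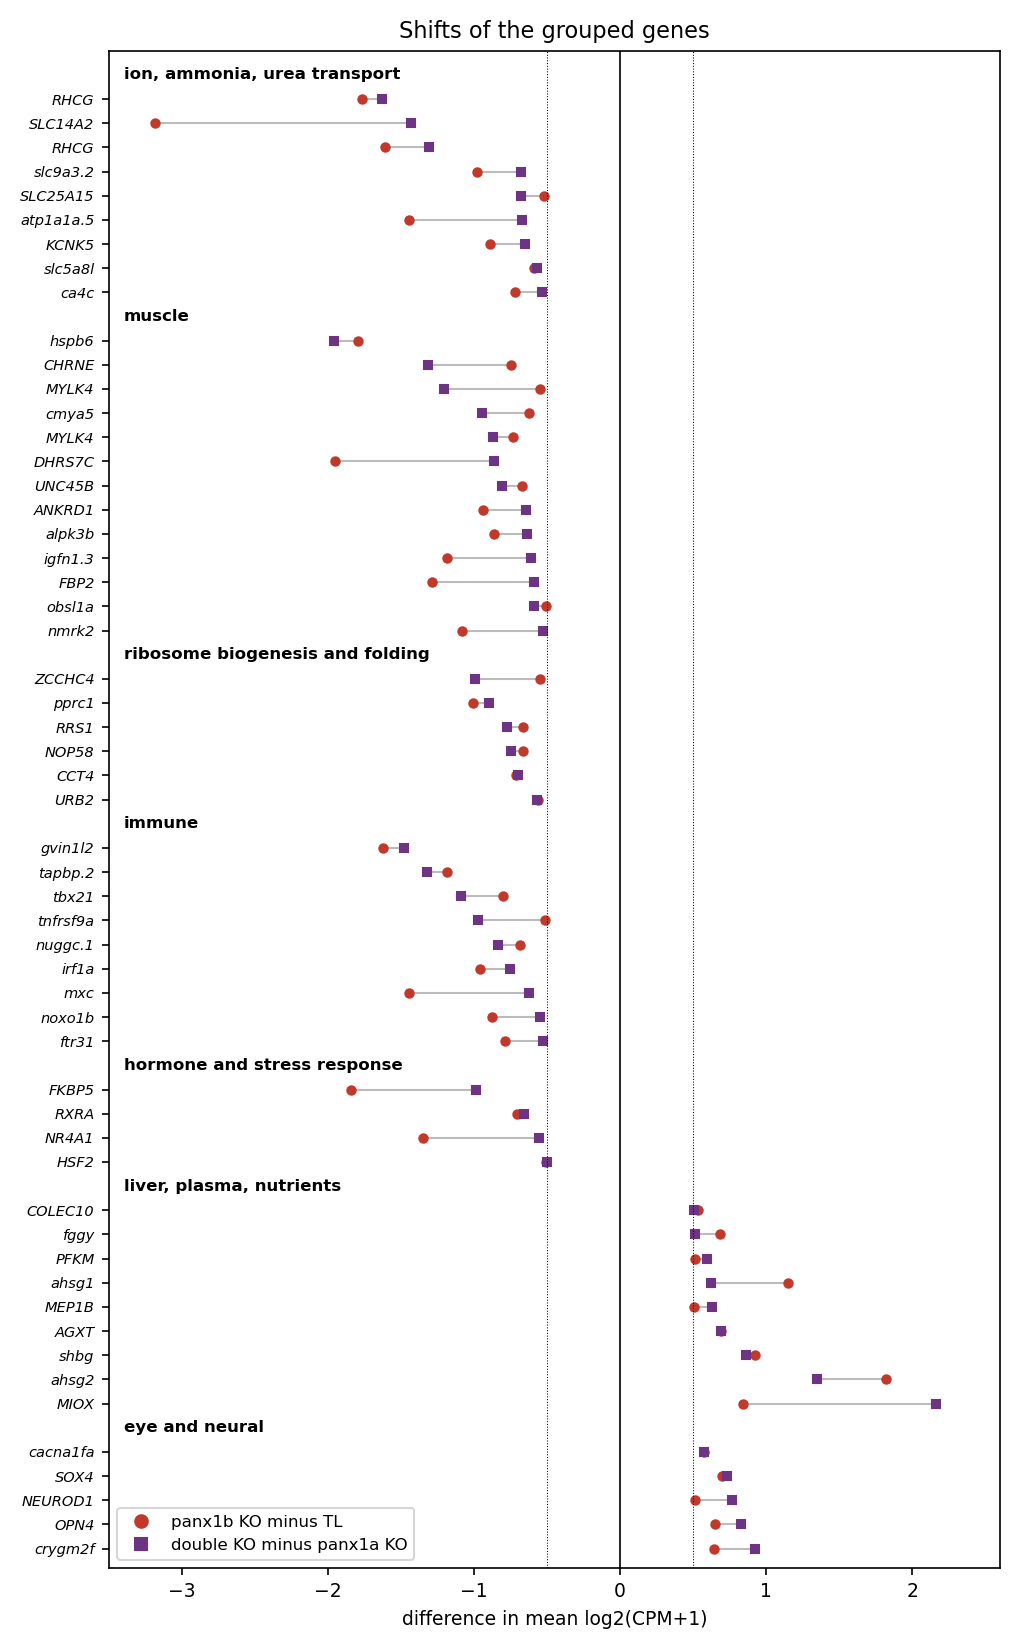
Difference in mean log2(CPM+1) of the genes grouped by role, as circles for panx1b KO minus TL and squares for double KO minus panx1a KO, with a grey line joining the 2 values of a gene and dotted lines at -0.5 and 0.5. Pairs such as hspb6, CCT4 and AGXT nearly coincide, whereas SLC14A2, DHRS7C and MIOX are spread widely.

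Immune genes were 9 of the lower genes, most of them at low levels. The large interferon-inducible GTPase gene gvin1l2 had 15.6, 10.29 and 14.1 CPM in panx1b KO against 47.4, 40.1 and 40.8 CPM in TL, and 26.7, 16.8 and 19.3 CPM in double KO against 52.3, 63.3 and 62.9 CPM in panx1a KO. The peptide-loading gene tapbp.2 stayed at or under 0.691 CPM in the 6 panx1b-null libraries and at or above 1.93 CPM in the others. The transcription factor genes irf1a and tbx21, the Mx-type GTPase gene mxc, and ftr31, nuggc.1, tnfrsf9a and noxo1b had shifts between -1.45 and -0.52. The summed level of 3 macrophage and neutrophil markers ran from 10.4 to 25.1 CPM in panx1b KO against 16.0 to 29.4 CPM in TL, and from 11.2 to 12.3 CPM in double KO against 14.9 to 19.6 CPM in panx1a KO, and their part in these shifts was not tested.

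Among the higher immune genes were the MHC class I genes mhc1uca and mhc1laa and the GTPase gene irge1. The gene mhc1uca had 2.75, 2.30 and 1.98 CPM in panx1b KO against 0.442, 0.632 and 0.547 CPM in TL, and 1.14, 1.04 and 1.79 CPM in double KO against 0.193, 0.348 and 0.355 CPM in panx1a KO. The genes mhc1uca and tapbp.2 lie next to each other in the RefSeq order (GRCz12tu) and differed in opposite directions. MHC genes have near-identical copies and differ between haplotypes, and reads of such copies may be split or lost in counting, so these values are uncertain. Whether this also holds for the lower immune genes, such as gvin1l2 and ftr31, was not tested.

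The higher genes held 9 genes of liver, plasma and nutrient metabolism. The fetuin gene ahsg2, whose product is a liver-made plasma protein, had 18.0, 28.1 and 26.0 CPM in panx1b KO against 8.0, 3.94 and 6.596 CPM in TL, and 22.7, 14.2 and 17.8 CPM in double KO against 6.08, 5.21 and 8.31 CPM in panx1a KO. Its paralogue ahsg1 averaged 23.5 ± 4.87 CPM in panx1b KO and 9.88 ± 0.408 CPM in TL, and 27.2 ± 2.25 CPM in double KO and 17.3 ± 1.49 CPM in panx1a KO. AGXT, a peroxisomal enzyme that removes glyoxylate, averaged 253 ± 42.3 CPM in panx1b KO and 155 ± 11.2 CPM in TL, and 287 ± 42.9 CPM in double KO and 178 ± 26.4 CPM in panx1a KO, with shifts of 0.69 in both pairs. The sex hormone-binding globulin gene shbg averaged 17.6 ± 1.80 CPM in panx1b KO and 8.89 ± 1.77 CPM in TL, and 16.0 ± 1.01 CPM in double KO and 8.63 ± 2.52 CPM in panx1a KO.

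MIOX, which starts the breakdown of inositol, had 23.4, 26.2 and 28.7 CPM in panx1b KO against 17.4, 11.3 and 14.1 CPM in TL, and 24.5, 23.5 and 24.6 CPM in double KO against 6.08, 3.82 and 4.22 CPM in panx1a KO. Its level was alike in both panx1b-null lines and differed between panx1a KO and TL without overlap. COLEC10, fggy, MEP1B and PFKM shifted by 0.50 to 0.68. PFKM, the muscle-type phosphofructokinase, was counted here by its metabolic role and not with the lower muscle genes. Liver markers stood apart in the same direction: their summed level over 5 genes ran from 1630 to 1963 CPM in panx1b KO against 1215 to 1523 CPM in TL, and from 1497 to 1770 CPM in double KO against 990 to 1209 CPM in panx1a KO. Of these 5, apoa2 passed the test for panx1b loss and none was among the 207. Summed intestine markers overlapped in both pairs. They ran from 2597 to 3432 CPM in panx1b KO against 2355 to 2902 CPM in TL. In double KO they ran from 2493.5 to 3016 CPM, against 2194 to 2504 CPM in panx1a KO. Of the 5 intestine genes, 2 were higher with panx1b loss by edgeR and none was among the 207. The part of liver or intestine RNA content in the shifts of the 9 genes was not tested.

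Eye and neural genes were 5 of the higher genes. OPN4, a melanopsin of light-sensing neurons outside the rods and cones, had 7.69, 5.99 and 7.09 CPM in panx1b KO against 3.54, 4.37 and 4.20 CPM in TL, and 6.05, 8.05 and 8.07 CPM in double KO against 2.99, 3.90 and 4.26 CPM in panx1a KO. All 6 panx1b-null libraries were at 5.99 CPM or above and no other exceeded 4.37 CPM. NEUROD1, a neuronal differentiation factor, had 120, 135 and 167 CPM in panx1b KO against 88.8, 118 and 87.7 CPM in TL, and 145, 202 and 198 CPM in double KO against 113, 104 and 99.96 CPM in panx1a KO. The lowest panx1b KO library was thus just above the highest TL library. SOX4 shifted by 0.70 and 0.73, the photoreceptor calcium channel gene cacna1fa by 0.58 and 0.57, and the lens crystallin gene crygm2f by 0.64 and 0.92. Summed photoreceptor markers overlapped in both pairs, at 567 to 771 CPM in panx1b KO against 684 to 886 CPM in TL and at 621 to 912 CPM in double KO against 596 to 828 CPM in panx1a KO. Lens markers ran from 288 to 559 CPM in panx1b KO against 474 to 582 CPM in TL, and from 648 to 827 CPM in double KO against 399 to 524 CPM in panx1a KO. Summed neuron markers overlapped in both pairs. They ran from 723 to 1267 CPM in panx1b KO against 796 to 1219 CPM in TL. In double KO they ran from 899 to 1253 CPM, against 860 to 1003 CPM in panx1a KO.

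The keratin gene cyt1, the most abundant of the 207, had 4188, 3579 and 3011 CPM in panx1b KO against 1108, 1706 and 1338 CPM in TL, and 2740, 1927 and 2195 CPM in double KO against 1885, 1803 and 1179 CPM in panx1a KO. The lowest double KO library exceeded the highest panx1a KO library by little. The gene cyt1 is itself 1 of 5 epidermis markers, whose sum ran from 17217 to 22886 CPM in panx1b KO against 11416 to 12859 CPM in TL, and overlapped at 14250 to 18097 CPM in double KO against 11852 to 15704 CPM in panx1a KO. The collagen gene col7a1, of the fibrils that anchor skin, shifted by 0.77 and 0.53.

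Further higher genes with large shifts in both pairs had unrelated roles. The globin gene HBE1 (ENSDARG00000115405) had 23.4, 25.6 and 25.3 CPM in panx1b KO against 13.04, 13.4 and 9.30 CPM in TL, and 51.5, 46.6 and 43.5 CPM in double KO against 6.13, 7.14 and 7.80 CPM in panx1a KO. All 4 lines were apart for this gene. Summed erythrocyte markers ran from 108 to 124 CPM in panx1b KO against 92.0 to 110 CPM in TL, and from 139 to 155 CPM in double KO against 115 to 133 CPM in panx1a KO. Globin genes have near-identical copies, so its value is uncertain. The gene soul5, of the haem-binding SOUL family, averaged 179 ± 26.4 CPM in panx1b KO and 106 ± 8.19 CPM in TL, and 212 ± 36.6 CPM in double KO and 93.0 ± 7.93 CPM in panx1a KO. The coiled-coil gene ccdc15 had 7.42, 7.397 and 7.05 CPM in panx1b KO against 1.41, 0.972 and 0.718 CPM in TL, and 4.95, 6.86 and 5.23 CPM in double KO against 2.75, 2.12 and 2.36 CPM in panx1a KO.

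The mitochondrial cmc4 shifted by 1.27 and 1.23, CYTH3, an exchange factor for ARF GTPases, by 1.16 and 1.38 from under 1 CPM in the libraries with panx1b, MICALL1 of recycling endosomes by 0.72 and 1.08, and the zinc finger gene znf1178 by 0.90 and 0.74. The axonemal dynein gene DNAH3 had 35.4, 25.6 and 33.8 CPM in panx1b KO against 13.97, 9.72 and 8.17 CPM in TL, and 16.5, 15.5 and 14.3 CPM in double KO against 11.1, 10.7 and 9.73 CPM in panx1a KO. Its double KO values were closer to those of panx1a KO and TL than to panx1b KO.

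**Figure D4:**
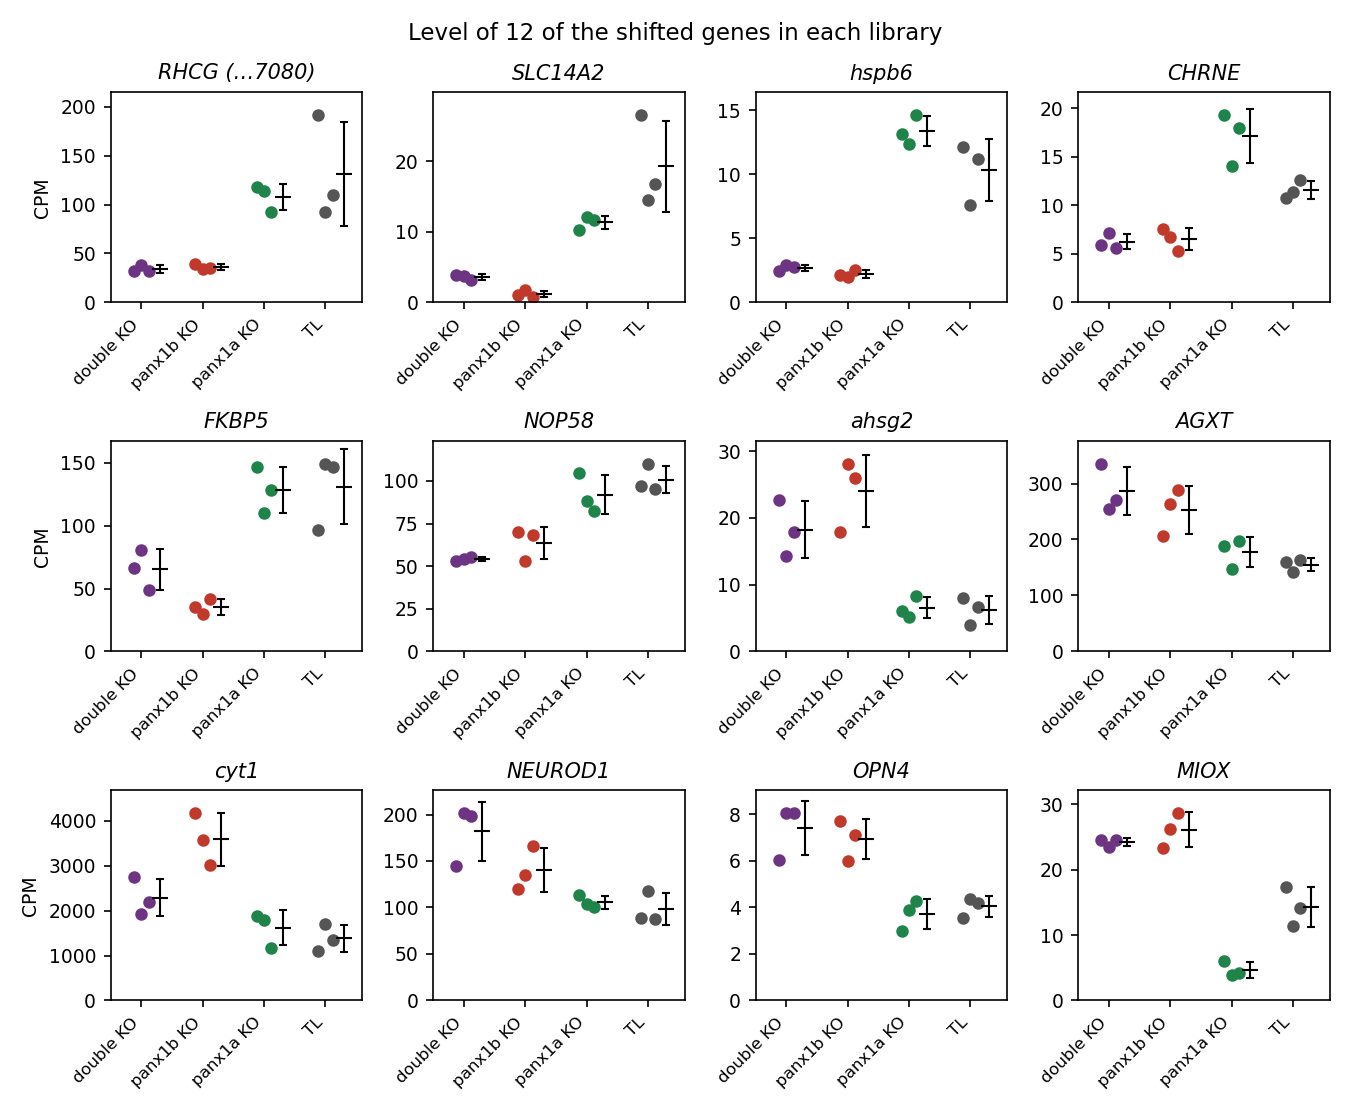
CPM of 12 of the genes in each library (points, linear axes from 0) with the mean and SD of the 3 libraries of each line beside them (black), for double KO, panx1b KO, panx1a KO and TL from left to right. In every panel the 6 panx1b-null points lie on 1 side of the 6 others; the gap is wide for hspb6 and RHCG (ENSDARG00000007080) and narrow for cyt1, NOP58 and NEUROD1.

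Further lower genes lay outside these groups. The meiotic gene MSH4 averaged 2.07 ± 0.695 CPM in panx1b KO and 4.61 ± 0.235 CPM in TL, and 0.791 ± 0.111 CPM in double KO and 5.97 ± 0.822 CPM in panx1a KO. The glucuronosyltransferase gene ugt2a6 averaged 1.28 ± 0.188 CPM in panx1b KO and 5.32 ± 0.439 CPM in TL, and 1.51 ± 0.254 CPM in double KO and 6.54 ± 1.13 CPM in panx1a KO. The clustered protocadherin gene pcdh1gb9 stayed at or under 0.638 CPM in the panx1b-null libraries and was at 2.43 to 7.64 CPM in the others. The purine nucleoside phosphorylase genes PNP and pnp4a shifted by -0.55 and -0.76 and by -0.52 and -1.15.

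Some further genes, most of them without a settled name, are given here because of their large shift in at least 1 pair. The gene zmp:0000000737 had 0.137, 0.340 and 0.0921 CPM in panx1b KO against 135, 46.7 and 88.0 CPM in TL, whereas it had 32.1, 45.6 and 36.9 CPM in double KO against 101, 102 and 112 CPM in panx1a KO. It was thus near absent in panx1b KO alone. The gene taco1 had the same form at a lower level, with 0.275, 0.213 and 0.322 CPM in panx1b KO, 5.83, 7.87 and 6.49 CPM in TL, 3.46, 3.03 and 3.71 CPM in double KO and 5.74, 6.57 and 5.91 CPM in panx1a KO. By contrast, si:ch211-213i16.3 was high in TL alone, at 20.4, 19.0 and 20.6 CPM, against 0.237 to 1.47 CPM in the 9 knock-out libraries. The gene si:ch211-113a14.9 was near absent in both panx1b-null lines, at 0.142 to 0.395 CPM in those 6 libraries and 5.83 to 7.21 CPM in the others. In all, 5 lower genes were under 1 CPM in every panx1b-null library and over 2 CPM in every other, and 3 of the 5 had clone-derived names. Of these names, si:ch211-113a14.9 and si:ch211-113a14.20 share a clone, and whether they are separate cases was not tested. On the higher side, ENSDARG00000117512 had 26.5, 21.3 and 17.5 CPM in panx1b KO against 1.68, 2.62 and 2.91 CPM in TL, and 9.77, 8.76 and 9.63 CPM in double KO against 1.93, 1.24 and 1.97 CPM in panx1a KO.

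Poorly named genes were common in the set. A gene symbol was carried by 130 of the 207 genes (62.8%), a clone-derived name by 57 (27.5%) and an identifier alone by 20 (9.66%). Among all genes at this level these shares were 82.2%, 12.8% and 4.97%. Among the 35 genes with both shifts of at least 1, 13 (37.1%) had a gene symbol. The 433 genes of the same rule for panx1a loss had gene symbols in 49.7% and clone-derived names in 42.0%.

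The effect of panx1a loss was fitted as a single value for both panx1b backgrounds. It was tested over the 12 libraries with edgeR (adjusted p under 0.05 and p under 0.001). A plain average of the panx1a differences in both backgrounds would be independent of both differences that chose the genes. The fitted value weights the libraries by their counts. It can therefore depart from such an average where a gene's panx1b shifts differ, and is then not fully independent of them. The requirement of no overlap also limits how large the panx1a effect can be in the chosen genes. Of the 207 genes, 7 were higher (3.38%) and 5 lower (2.42%) with panx1a loss, where 2.94% of all genes were higher and 4.85% lower. The 7 and 5 became 18 and 10 with DESeq2, 17 and 16 at an adjusted p under 0.05 alone, and 17 and 11 in a fit with the interaction. Over all genes, the 621 higher and 1023 lower became 1108 and 1385 with DESeq2. At an adjusted p alone they became 1336 and 1912, and in the fit with the interaction 999 and 1401. The median log2 fold change was 0.01 in the 207 genes and 0.0031 in all genes. In 10 of the 12 genes that passed, the direction was opposite to that of the panx1b shift, as it was in 121 of the 207 genes (58.5%). Among all genes the fitted panx1a and panx1b effects had opposite signs in 48.3%, and among the 1644 of all genes that passed the panx1a test in 60.0%. When 1 library was left out, 3 to 7 of the 207 genes were higher and 4 to 10 lower. Over all genes these ranges were 489 to 617 higher and 784 to 1089 lower. Of the 207 genes, 3 were higher without TL replicate 2 or panx1a KO replicate 3, and 10 were lower without panx1b KO replicate 3. The number higher was 4 without panx1a KO replicate 2, panx1b KO replicate 1 or 2 or double KO replicate 2 or 3.

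CRTAC1, an extracellular matrix protein gene, had the smallest p. It had 17.7, 16.4 and 15.0 CPM in panx1b KO, 30.6, 27.6 and 25.6 CPM in TL, 22.1, 23.9 and 24.9 CPM in double KO and 37.8, 41.3 and 39.2 CPM in panx1a KO. The 4 lines did not overlap, and the panx1a effect was 0.50 ± 0.07 (log2 fold change ± SE, adjusted p = 0.000353). The gene plekhs1.1 had the same order of lines, with 3.85, 3.61 and 3.36 CPM in panx1b KO, 11.5, 11.95 and 11.2 CPM in TL, 5.30, 10.9 and 9.17 CPM in double KO and 21.8, 15.9 and 25.3 CPM in panx1a KO, and a panx1a effect of 1.01 ± 0.15 (adjusted p = 0.000743). For si:dkey-183k8.1 the effect was 1.34 ± 0.22 (adjusted p = 0.00123) and for ENSDARG00000117789 -0.92 ± 0.15 (adjusted p = 0.00102). For si:ch211-213i16.3 it was -3.46 ± 0.50 (adjusted p = 0.000497), with the TL libraries at the 19.0 to 20.6 CPM given above. The difference of this gene in mean log2(CPM+1) was -3.36 in panx1a KO minus TL but -0.09 in double KO minus panx1b KO. Its fitted value thus rests on the lines with panx1b. Of the grouped genes, gvin1l2 (0.56 ± 0.13, adjusted p = 0.0115) and ahsg1 (0.49 ± 0.12, adjusted p = 0.0114) also passed. None of the transporter, muscle, ribosome biogenesis or eye genes passed.

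**Figure D5:**
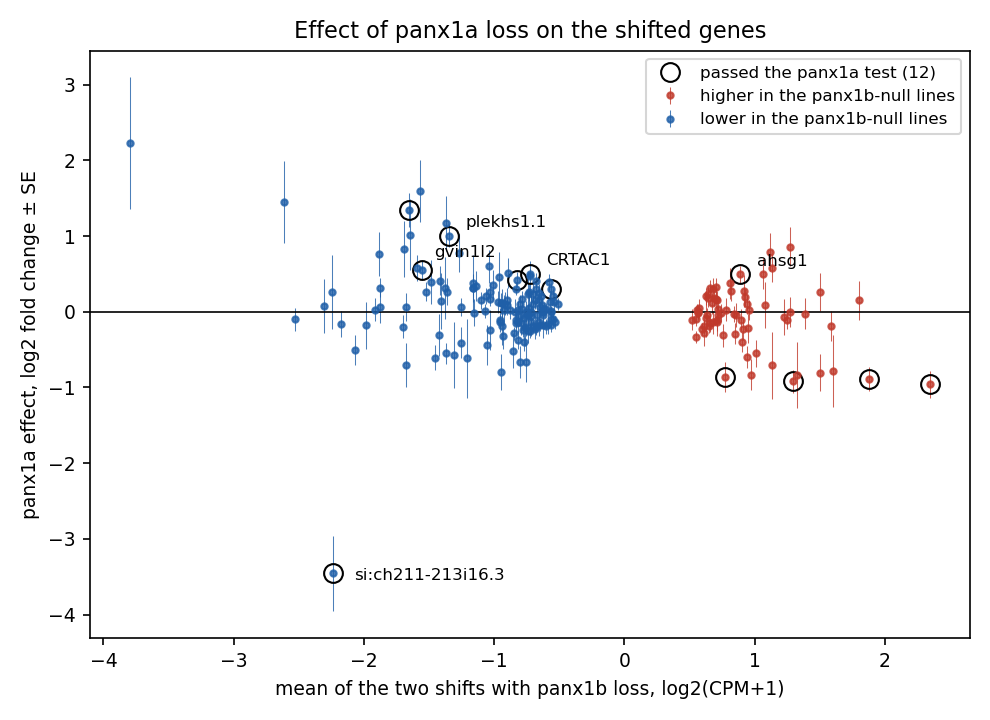
Effect of panx1a loss over the 12 libraries (y axis, log2 fold change with bars of ± 1 SE) against the mean of the 2 panx1b shifts (x axis, log2(CPM+1)) for the 207 genes, with black rings around the 12 that passed the test. Most points lie near 0; the lowest ringed point, at -3.46, is si:ch211-213i16.3.

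The place of the 207 genes relative to panx1b was counted along the RefSeq annotation (GRCz12tu), which was used only for the order of genes. By unique symbol, 124 of the 207 genes were placed. The chromosome of panx1b held 8 of them (6.45%) and 5.75% of all placed genes at this level. Only CHRNE, 33 genes away, lay within 250 genes of panx1b, where 205 genes at this level were placed. Others on that chromosome included FBP2, cmya5, SLC14A2, ccdc15, zgc:153704 and tmem116, which lay 487 to 1032 genes away. Under the same rule for panx1a loss, 28 of 250 placed genes (11.2%) were on the chromosome of panx1a, which held 3.47% of all placed genes. The placed genes were found on 25 chromosomes, with 1 to 12 on each. The chromosome with 12 held 9.68% of them, against 4.38% of all placed genes at this level. Of the 124 placed genes, 18 had another of them within 10 genes, in 9 pairs, of which 7 differed in the same direction. Whether this is many for a set of this size was not tested. The genes without a place were not covered by these counts.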

How the data were processed

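The genes and lists described here were chosen with earlier results of these data known. The authors deposited 1 table of whole-number read counts per Ensembl gene for each library. Submitters' processing notes name bcl2fastq 2.17, FastQC 0.11.2, Trim Galore 0.4.4, TopHat2 2.0.11 and HTSeq 0.6.1p2, with build danRer11; the paper's methods name RSEM for transcript abundance, and how reads of near-identical copies were counted is not given in the sources used here. Libraries came from separate pools of about 30 larvae (directional kit, total RNA).

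CPM was computed here from the counts and library totals, then log2(CPM+1), which understates differences of genes near 1 CPM. Genes averaging 1 CPM or more over the 12 libraries were kept. The panx1a and panx1b effects were fitted together in edgeR 4.0.16 (R 4.3.3; TMM, quasi-likelihood, Benjamini-Hochberg adjustment over 21111 genes) and called at adjusted p under 0.05 with p under 0.001, after the study's cut-offs. The fit was run on simulated data that held panx1a effects only and the same spread for every gene. That run therefore does not cover panx1b effects, an interaction or the spread of the real libraries. Replicate libraries differed by more than counting noise (chi-square per degree of freedom from 2.84 to 24.6). p-values measure the spread between pools of 1 line, not between lines.

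Genes were named by rule: the 12 higher and 12 lower symbols with the largest smaller shift, members within 50 genes of panx1b or on a fixed list, the 5 smallest panx1a p, genes beside the threshold, and the pannexins. Genes named for a role or for their size were chosen after their values were seen. A few genes are not reported here. Alternatives were other library sizes, pseudocounts, filters, DESeq2 1.42.0, a replicate block and leaving out each library. A table of names gave 28223 of 31261 identifiers a symbol.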

Additional observations from a re-analysis of the deposited data

Results flagged for a closer look

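In 7 of the 81 genes chosen for a name or role, all 3 libraries moved one way with panx1a loss in larvae with panx1b (panx1a KO minus TL) and all 3 the other way in larvae without it (double KO minus panx1b KO), with no overlap in either pair. Among the 207 genes 10 did so (4.83%), and among all genes at this level 3.78%. The difference between the 2 backgrounds was not tested, since it is the same quantity as the difference between the shifts that chose the genes. Panx1a loss went with lower HBE1 in larvae with panx1b (-0.68) and higher HBE1 without it (0.90). The urea transporter gene SLC14A2 had the same form (-0.68 and 1.08), as did DHRS7C of the sarcoplasmic reticulum (-0.45 and 0.64). The other 4 had the reverse form, being higher with panx1a loss in larvae with panx1b and lower without it: ccdc15 (0.76 and -0.32), MSH4 (0.31 and -0.75), MYLK4 (ENSDARG00000091260, 0.36 and -0.30) and ZCCHC4 (0.16 and -0.29). These are differences in mean log2(CPM+1).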

How the results depend on the processing

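The 69 higher and 138 lower genes numbered 64 to 77 and 136 to 160 under TMM or DESeq2 library sizes, totals without signal recognition particle copies, a pseudocount of 0.5 CPM or no filter on low values. At a mean of at least 5 CPM they numbered 41 and 91, at a shift of at least 1 they numbered 8 and 27 (1 on the chromosome of panx1b), and with overlap allowed 114 and 231. Leaving out 1 library gave 64 to 88 higher and 137 to 167 lower genes, 8 to 12 (5.59% to 7.94%) of them on that chromosome. These totals do not show that the same genes were kept, since fewer libraries also make the no-overlap requirement easier to meet. Of the 69 higher genes 58 were kept without panx1a KO replicate 3, and of the 138 lower genes 124 without panx1b KO replicate 3. Of 2688 recomputed shifts of 84 genes 31 moved by more than the replicate SD, all at a pseudocount of 0.5 CPM, and none reversed. For genes chosen by the rule the sign was largely fixed in advance. Their 6 panx1b-null libraries lie on 1 side of the 6 others, so leaving out a library or changing the pseudocount cannot reverse it. With panx1a loss, the 621 higher and 1023 lower genes became 1108 and 1385 under DESeq2. They became 1336 and 1912 at an adjusted p under 0.05 alone, and 999 and 1401 in a fit with the interaction. In the same settings the 7 and 5 of the 207 became 18 and 10, 17 and 16, and 17 and 11. With panx1b loss, the 474 higher and 781 lower genes became 836 and 1207 under DESeq2, 1114 and 1509 at an adjusted p alone, and 791 and 1190 with the interaction. The cause was not tested. Leaving out 1 library gave 489 to 617 and 784 to 1089 genes with panx1a loss, 3 to 7 and 4 to 10 of the 207, and 350 to 539 and 555 to 800 genes with panx1b loss. Whether same-numbered libraries of different lines shared a batch was not settled. Such libraries correlated at -0.20 to 0.38, over 0.1 in 7 of 18 pairs, and 6 of 12 libraries correlated best with their own number. A replicate block gave 5 higher and 7 lower of the 207 genes with panx1a loss, and 565 higher and 915 lower over all genes. Promoter motifs were not run, as no genome sequence was used here. Genes near 1 CPM rest on few counts.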
